A study of Mus musculus with 4 samples.

Results

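Autosomal gene deserts were described from Hi-C, an assay of how often 2 places of the genome are ligated to each other, in male mouse embryonic stem cells (mESCs). A gene desert was an interval of at least 1 Mb between neighbouring protein-coding gene bodies of an autosome in the mm9 genome. The members were the bins of 40 kb that lay wholly inside such an interval and were kept in both contact matrices, with the first 8 Mb and the last 5 Mb of each chromosome left out. There were 9598 desert bins of 66382 bins in all, or 17.7% of the 54342 autosomal bins that passed the same limits. They covered 383.92 Mb in 233 deserts.

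The study compared wild-type (WT) mESCs of the N3 line, cultured with 2i medium, with Firre KO mESCs to ask what the X-linked long non-coding RNA locus Firre does for chromosome folding. According to the methods, the Firre KO cells lacked the locus through recombination between loxP cassettes and were co-cultured with irradiated feeder fibroblasts in 2i medium, followed by feeder depletion. The methods and a figure legend name feeders for the Firre KO cells only, so that genotype and culture cannot be told apart, while a sentence of the study's results places both on feeders. Whether the Firre KO cells came from the N3 line is not given in the sources used here. Both groups were cross-linked, cut with HindIII and ligated in situ. Each had 2 technical duplicate libraries, pooled by the authors in 1 matrix.

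In all, 65611035 read pairs were recovered from the WT matrix and 46635652 from the other, of which 16.1% and 35.6% joined different chromosomes. In the 1 bin that lies wholly in the Firre deletion, 1782 read pairs were found in WT and 2011 in the other matrix, so the deletion was not visible there and the latter is called the Firre KO-labelled matrix throughout. With 1 matrix per group no difference between the groups has a replicate check, no test was run, and all intervals are 95% counting intervals for the error of counting alone. The reads carry no molecular identifiers, so they need not be independent.

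As background, mammalian chromosomes fold into topologically associating domains (TADs), neighbourhoods of high contact separated by boundaries at which the protein CTCF often binds. At larger scale, active gene-rich chromatin and inactive gene-poor chromatin each contact their own kind, the A and B compartments. Gene deserts are mostly AT-rich and often lie beside genes of development and of the nervous system, whose distal enhancers can lie far inside them.

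The sequence of the deserts differed from that of other bins. Other autosomal bins were sorted into 14636 bins without a protein-coding gene in shorter intervals, 27943 bins that overlapped 1 or 2 protein-coding genes and 2165 bins that overlapped 3 or more. The median GC content was 37.8% in desert bins, 41.2% in shorter intergenic bins, 42.6% in bins with 1 or 2 genes and 47.4% in bins with 3 or more. HindIII sites (AAGCTT) ran the other way, with medians of 13, 13, 12 and 11 sites per bin. The core of the CTCF motif, searched on both strands as CCAC, any base, AGG, any base and GGC in a row, was found in 3.17% of desert bins, 7.29% of shorter intergenic bins, 11.9% of bins with 1 or 2 genes and 23.6% of bins with 3 or more. Deserts thus had the lowest share of bins with this motif, and a match is a description of the letters only.

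The stretches below are mm9 reference sequence, written 5′ to 3′. They were chosen because each holds a motif match, in capitals, in a desert bin where both matrices had a TAD boundary within 1 bin of each other. These are 3 of the 4 such boundaries of highest WT strength. Whether a match lies in a repeated sequence was not examined.
Hs3st1-Rab28, chr5:41435854-41436013, minus strand: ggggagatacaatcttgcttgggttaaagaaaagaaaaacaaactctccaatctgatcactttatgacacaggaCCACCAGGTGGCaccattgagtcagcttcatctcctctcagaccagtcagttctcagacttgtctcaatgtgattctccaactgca
Kcnt2-Cdc73, chr1:142624709-142624868, plus strand: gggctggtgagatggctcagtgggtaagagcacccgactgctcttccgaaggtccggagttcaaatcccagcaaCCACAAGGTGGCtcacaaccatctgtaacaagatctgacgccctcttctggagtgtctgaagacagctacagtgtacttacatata
Slc4a3-Epha4, chr1:75594331-75594490, minus strand: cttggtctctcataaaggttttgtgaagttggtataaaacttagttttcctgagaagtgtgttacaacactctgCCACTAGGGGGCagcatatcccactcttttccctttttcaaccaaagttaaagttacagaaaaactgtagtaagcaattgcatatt
The next stretch shows what the assay could cut. It is the HindIII site, in capitals, nearest the middle of the Olfm4-Pcdh17 desert, one of the longest.
Olfm4-Pcdh17, chr14:82636136-82636295, plus strand: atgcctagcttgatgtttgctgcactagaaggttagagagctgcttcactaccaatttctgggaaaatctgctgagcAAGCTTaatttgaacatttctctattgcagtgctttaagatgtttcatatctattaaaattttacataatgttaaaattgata
Of these 4 stretches of 160 bases, the last had a GC content of 33.1%, and the 3 with a motif ranged from 37.5% to 51.9%.

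Deserts were named by the protein-coding genes on their sides. Their lengths ran from 1.01 to 7.20 Mb with a median of 1.53 Mb, and 64 were 2 Mb or longer. The longest interval just below the limit was 0.997 Mb, with 39 intervals between 0.9 and 1 Mb, and 34 of the intervals past the limit were below 1.1 Mb. The longest desert, Gm5591-Gm16387 on chromosome 7, kept only 3 bins. Celf4-Pik3c3 on chromosome 18 (4.52 Mb, 111 bins), Olfm4-Pcdh17 on chromosome 14 (4.42 Mb, 109 bins) and Cntnap5b-Cdh20 on chromosome 1 (4.28 Mb, 105 bins) came next. The rest of the 10 longest ran from 3.62 to 3.99 Mb. They were 4930555F03Rik-Aga, Dsel-Cntnap5a, Nudt12-Efna5, Zeb2-Acvr2a, Pcdh7-G6pd2 and D3Ertd751e-Pcdh10. Several of these flanks encode adhesion or guidance molecules of neurons, among them the protocadherins Pcdh7, Pcdh10 and Pcdh17, the contactin-associated proteins Cntnap5a and Cntnap5b and the ephrin Efna5.

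Such flanks were counted over all deserts, the longest included. A listed gene of cell adhesion or axon guidance stood on at least 1 side of 57 of 233 deserts (24.5%), against 68 of 2174 intervals of 100 kb to 1 Mb (3.13%). For developmental transcription factors the counts were 22 deserts (9.44%) and 134 intervals (6.16%), and for ion channels and neurotransmitter receptors 16 deserts (6.87%) and 79 intervals (3.63%). These are counts of annotation with no test, and the gene lists were chosen with earlier results of these data known. The deserts were not empty of other genes. They held 1059 genes whose annotated type is another than protein-coding. Among them were 349 pseudogenes, 178 snRNA, 169 snoRNA and 101 miRNA genes and 23 lincRNA genes. They also included 62 immunoglobulin V segments, all in 1 desert, which the annotation lists as a type of their own. Only 13 deserts held no annotated gene.

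Desert bins were covered by fewer reads. The median was 992 read pairs per bin in WT and 769 in the Firre KO-labelled matrix, against 1823 and 1299 in shorter intergenic bins and 2547 and 1918 in bins with 3 or more genes. Of the desert bins in range, 4.57% were dropped from at least 1 matrix, against 1.80% of other bins. The drops were unevenly spread, since the deserts Gm5591-Gm16387 (7.20 Mb) and C130026I21Rik-Sp110 (2.21 Mb) kept only 3 bins each. Iterative correction by the authors gave all kept bins of a matrix the same total, so every contact value below is relative to the other contacts of the same bins.

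Contacts within deserts were fewer than expected between close bins and more than expected between distant ones. The expected value was the mean of all kept bins of the same chromosome at the same distance. Neighbouring bins, 40 kb apart, had 0.942 times the expected contacts in WT (0.938 to 0.945) and 0.891 times in the Firre KO-labelled matrix (0.887 to 0.895). Other bins, weighted to the GC content of the deserts, were also below expectation at this distance, at 0.951 (0.946 to 0.957) and 0.865 (0.859 to 0.872). At 200 kb the values in deserts were 0.955 and 0.957. The ratio passed 1 before 400 kb, where it was 1.10 and 1.14, and reached 1.45 (1.41 to 1.48) and 1.69 (1.65 to 1.73) at 1 Mb. Bins with 3 or more genes ran the other way in both matrices, with 0.712 in WT and 0.582 in the Firre KO-labelled matrix at 1 Mb. Bins with 1 or 2 genes had 0.882 and 0.831 there. Shorter intergenic bins lay on the side of deserts, with 1.14 and 1.19 at 400 kb, above the deserts. At 1 Mb they had 1.11 and 1.06, below the deserts.

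**Figure D1:**
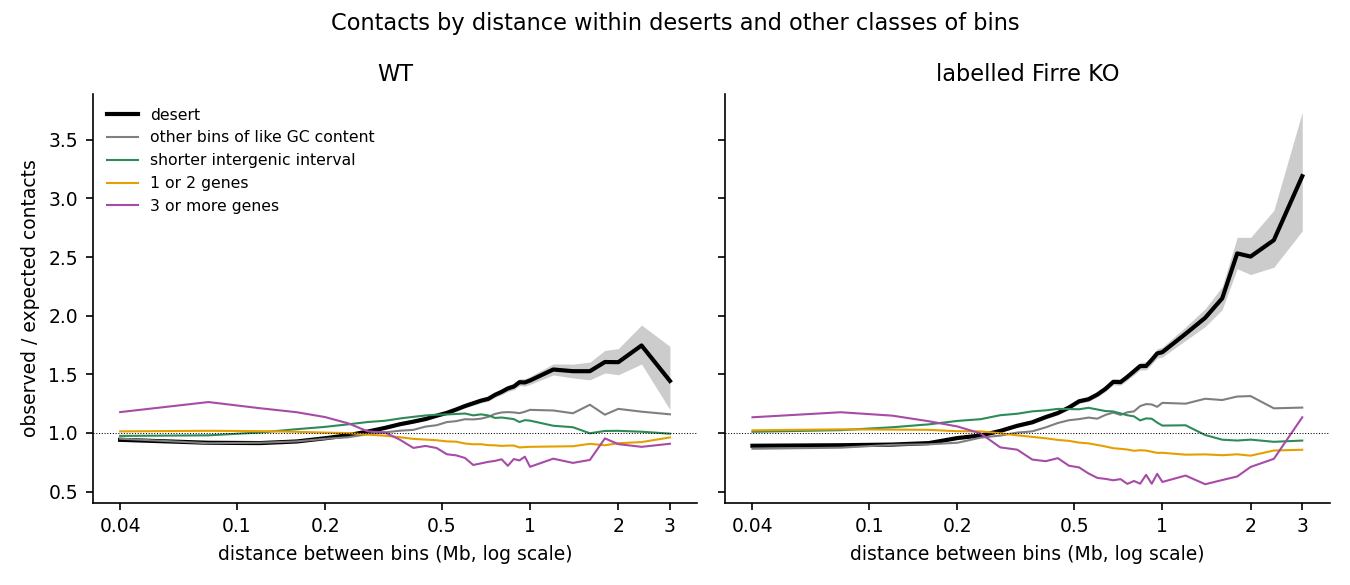
Observed over expected contacts (vertical axis) against the distance between bins (horizontal axis, log scale), in WT (left) and the Firre KO-labelled matrix (right). Black is pairs within one desert with its 95% counting interval, grey is other bins weighted to the GC content of deserts, and the colours are the other classes. Desert pairs start below 1 at 40 kb in both panels and reach 1.60 at 2 Mb in WT and 2.50 in the Firre KO-labelled matrix.

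The 2 matrices parted at long range. At 2 Mb, where 57 deserts were long enough to give pairs, desert contacts were 1.60 times expected in WT (1.5 to 1.72, 1042 read pairs) and 2.50 times in the Firre KO-labelled matrix (2.35 to 2.67, 1261 read pairs). The log2 ratio of the matrices was 0.64 (0.51 to 0.78), against 0.22 (0.17 to 0.27) at 1 Mb and 0.00 (-0.02 to 0.02) at 200 kb. At 3 Mb only 19 deserts and 151 and 234 read pairs remained, with 1.44 (1.20 to 1.74) and 3.19 (2.72 to 3.74). Without the correction weights the log2 ratio kept its sign, at 0.38 for 1 Mb and 0.84 for 2 Mb, and the levels themselves were 0.710 at 1 Mb and 0.697 at 2 Mb in WT, and 0.925 and 1.25 in the Firre KO-labelled matrix. Bins with 3 or more genes had log2 ratios of -0.29 at 1 Mb and -0.35 at 2 Mb, and the sign turned at 3 Mb (0.32), where their levels were 0.908 (0.755 to 1.09) in WT and 1.13 (0.909 to 1.41) in the Firre KO-labelled matrix.

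Other bins of like GC content did not reach the long-range level of deserts. Pairs of other bins, weighted to the GC content of the deserts, had 1.20 times the expected contacts in WT and 1.26 times in the Firre KO-labelled matrix at 1 Mb. At 2 Mb they had 1.21 (1.14 to 1.27) and 1.31 (1.24 to 1.40). Desert pairs lay above these values at both distances in both matrices, and their intervals did not overlap. Desert pairs also share an interval free of protein-coding genes, which the comparison pairs need not.

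Contact fell off more slowly with distance in deserts than in the other classes by gene content. Desert pairs lay within 1 interval, which pairs of the other classes need not. From 80 kb to 1 Mb the exponent of the decay was -0.866 (-0.870 to -0.862) within deserts in WT. It was -1.03 in shorter intergenic bins, -1.16 in bins with 1 or 2 genes and -1.35 in bins with 3 or more. In the Firre KO-labelled matrix it was -0.660 (-0.664 to -0.656), -0.923, -1.07 and -1.32 in the same order. Over this range the order of the 4 classes was the same in both matrices. The difference between the matrices was 0.21 in deserts and 0.03 in bins with 3 or more genes. No exponent was fitted to other bins of like GC content, but their ratio to expectation rose too. From 80 kb to 1 Mb it went from 0.913 to 1.20 in WT, against 0.917 to 1.45 in deserts. In the Firre KO-labelled matrix it went from 0.875 to 1.26, against 0.896 to 1.69. From 200 kb to 2 Mb the desert exponents were -1.13 and -0.729, so the gap between the matrices widened. The other classes were close to each other over that range, from -1.45 to -1.43 in WT and from -1.38 to -1.31 in the Firre KO-labelled matrix, and no longer in the order above. Reads between chromosomes, whose share differed between the matrices, are not counted in these values. They are part of the totals that the correction made equal, so they enter the weights. The part of unequal background ligation in these values was not tested.

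Summed over 80 kb to 2 Mb, where close pairs dominate, contacts within deserts were 1.05 times expected in WT (1.05 to 1.05, 1500264 read pairs) and 1.12 times in the Firre KO-labelled matrix (1.12 to 1.13, 948438 read pairs). This small excess was not particular to deserts. In WT shorter intergenic bins had 1.06 and bins with 3 or more genes 1.05, and in the Firre KO-labelled matrix shorter intergenic bins had 1.09 and bins with 3 or more genes 0.920. It depended on the correction: without the weights, the values were 0.507 and 0.572. Desert bins have fewer read pairs, as given above. Between a desert bin and bins outside the desert over the same distances the values were 1.02 and 1.07. By chromosome, the sum within deserts lay above 1 on 18 of 19 autosomes in WT, from 0.998 on chromosome 5 to 1.10 on chromosome 18, and on all 19 in the Firre KO-labelled matrix, from 1.06 on chromosome 14 to 1.20 on chromosome 10. The matrix labelled Firre KO was the higher on each of the 19.

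Single deserts varied more than the sum. Among the 220 deserts with at least 20 kept bins, the median was 1.04 in WT, with 80% of deserts between 0.949 and 1.16. In the Firre KO-labelled matrix the median was 1.12 and the same range 0.954 to 1.32. The log2 ratio of the matrices had a median of 0.11, from -0.37 to 0.41, and was above 0 in 170 deserts (77.3%). Among 1013 windows of 1.48 Mb without desert bins the median was 0.00 and 504 (49.8%) were above 0. No desert differed by 1.5-fold or more in either direction. The background was 0% of windows at least 1.5-fold higher and 0.197% at least 1.5-fold lower. Levels in the 2 matrices were correlated across the 220 deserts (Pearson's r 0.631, Spearman's rho 0.614). For the windows without desert bins these were 0.607 and 0.584. The points share their sequence between the matrices, and this is a description.

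**Figure D2:**
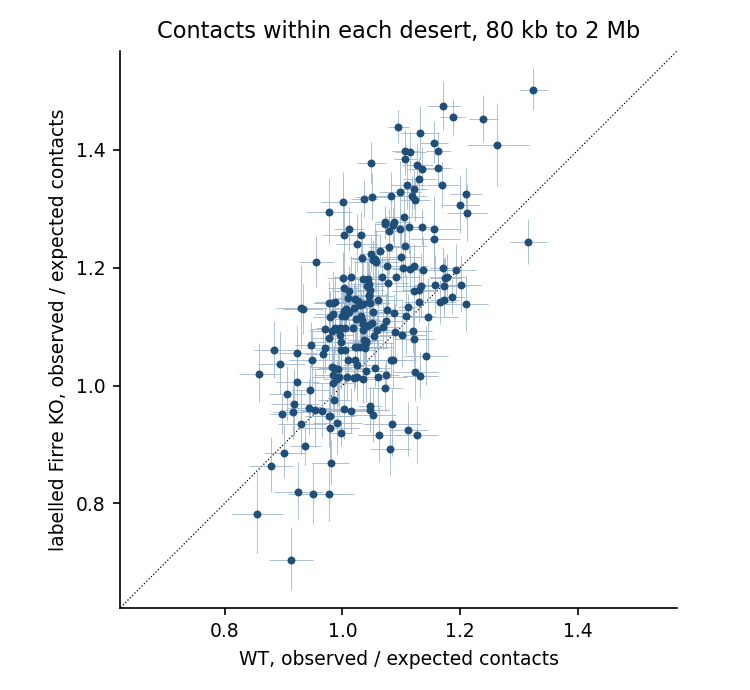
Each point is 1 of the 220 deserts with at least 20 kept bins. The axes give observed over expected contacts within the desert, 80 kb to 2 Mb apart, in WT (horizontal) and in the Firre KO-labelled matrix (vertical), the bars are 95% counting intervals, and the dotted line marks equal values, above which 170 points lie.

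The deserts with the highest ratio of the matrices were Gm16223-Cpeb2, Zfp608-Gramd3 and Vrk1-3110018I06Rik. Within Gm16223-Cpeb2 (chromosome 5, 42608038 to 43624701, 23 bins), contacts were 0.977 times expected in WT (0.939 to 1.02) and 1.29 times in the Firre KO-labelled matrix (1.24 to 1.35). Cpeb2 encodes a protein that binds the 3′ ends of mRNAs and controls their translation. Within Zfp608-Gramd3 (chromosome 18, 55152246 to 56559990, 34 bins) the values were 1.05 (1.02 to 1.07) and 1.38 (1.34 to 1.41). Within Vrk1-3110018I06Rik (chromosome 12, 107315621 to 108726841, 35 bins) they were 1.09 (1.08 to 1.11) and 1.44 (1.41 to 1.47). Vrk1 encodes a nuclear kinase of dividing cells. These deserts, and the lowest below, were chosen by this ratio.

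The deserts with the lowest ratio were Pcdh20-Gm10110, Vrk2-Gm6685 and Ppp6c-Lrp1b. Within Pcdh20-Gm10110 (chromosome 14, 88871204 to 90296350, 33 bins), contacts were 0.912 times expected in WT (0.876 to 0.950, 2694 read pairs) and 0.704 times in the Firre KO-labelled matrix (0.653 to 0.759, 799 read pairs). Within Vrk2-Gm6685 (chromosome 11, 26494000 to 28239127, 40 bins) the values were 1.13 and 0.916, and within Ppp6c-Lrp1b (chromosome 2, 39081972 to 40450767, 33 bins) 1.08 and 0.892. Pcdh20 encodes a protocadherin and Lrp1b a large lipoprotein receptor. These 3 had 36.0% to 38.1% GC, and the 3 with the highest ratio 39.5% to 46.0%.

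GC content moved with the level across deserts. Over the 220 deserts, its correlation with the contacts within the desert was 0.360 in WT and 0.595 in the Firre KO-labelled matrix (Pearson's r), and with the log2 ratio of the matrices 0.454. Read pairs per bin went along, with 0.484 between the depth in the Firre KO-labelled matrix and the log2 ratio, so composition and depth cannot be told apart here. Length did not follow the level, with 0.01 in WT and -0.09 in the Firre KO-labelled matrix. The highest level among these 220 deserts in both matrices, 1.32 in WT (1.30 to 1.35) and 1.503 in the Firre KO-labelled matrix (1.47 to 1.54), was that of Klf4-Actl7b on chromosome 4 (55545348 to 56752878, 29 bins). It was named after its values were seen. Klf4 encodes a transcription factor of the pluripotent state.

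Insulation was weaker inside deserts in squares of 480 kb. The insulation score is the log2 of the contacts that cross a bin, in a square of 480 kb, over the mean of the chromosome, and low values mark boundaries. The median score was 0.18 in desert bins in WT, 0.04 in shorter intergenic bins, -0.19 in bins with 1 or 2 genes and -0.48 in bins with 3 or more. In the Firre KO-labelled matrix it was 0.30, 0.08, -0.29 and -0.84. Desert bins were higher than the other bins on all 19 autosomes in both matrices. The study's setting takes the interquartile mean of the square, and the part of sparse counts in the score was not tested. With the plain mean, the excess of desert bins over other bins was 0.15 in WT and 0.26 in the Firre KO-labelled matrix, in place of 0.31 and 0.50. From uncorrected read pairs it was -1.07 and -0.83. In squares of 240 kb the excess was 0.0565 and 0.0753, and desert bins then lay below shorter intergenic bins, with medians of 0.00 and 0.04 in WT and 0.01 and 0.09 in the Firre KO-labelled matrix.

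The score rose across the edge of the desert. In WT, the mean was lowest 0.2 Mb outside the edge, at -0.17, and highest 0.44 Mb inside it, at 0.24. In the Firre KO-labelled matrix the lowest value was -0.48, at 0.12 Mb outside, and the highest 0.34, again 0.44 Mb inside. Called boundaries gathered just outside the edge. In the second bin outside there were 2.03 boundaries per Mb in WT and 2.33 in the Firre KO-labelled matrix, and at 0.16 Mb inside 0.747 and 0.345. Deeper inside, where fewer edges remain, the density varied widely from bin to bin, in WT between 1.84 at 0.92 Mb and 0.236 at 1 Mb.

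**Figure D3:**
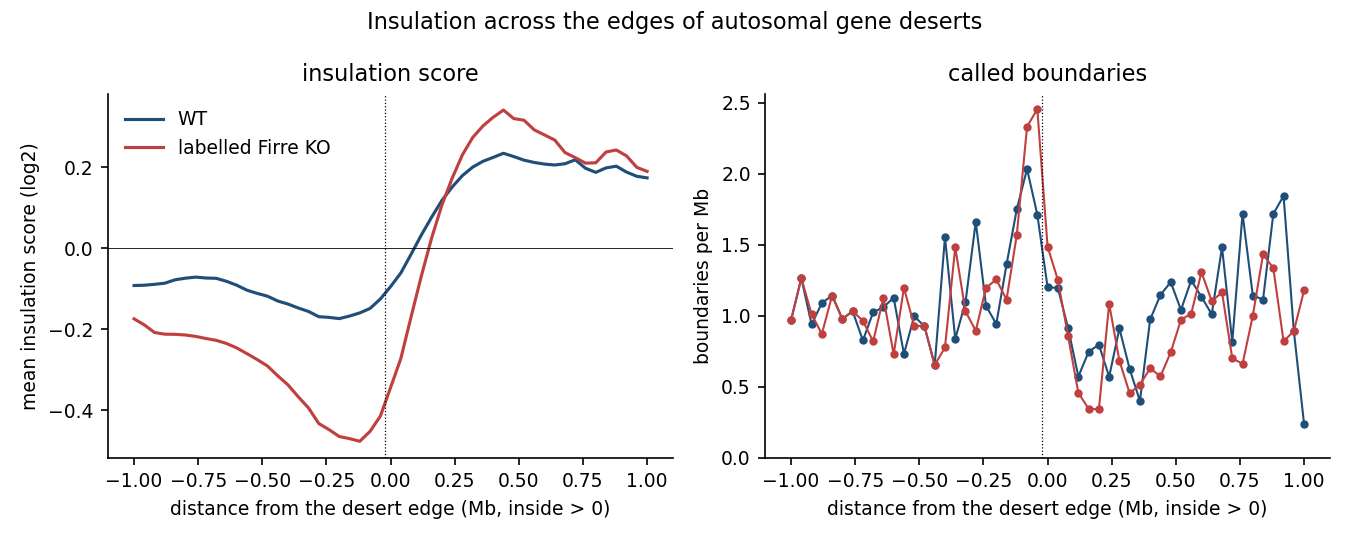
Mean insulation score (left, log2) and called boundaries per Mb (right) by distance from the edge of a desert, with the inside to the right of the dotted line. Between 335 and 440 edges stand behind each point up to 0.44 Mb inside, and in both matrices the score rises from its lowest value outside the edge to its highest 0.44 Mb inside.

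Boundaries did occur inside deserts. There were 380 in WT, or 0.996 per Mb (0.898 to 1.10), and 341 in the Firre KO-labelled matrix, or 0.894 per Mb (0.801 to 0.994). Shorter intergenic bins had fewer per Mb, 0.768 and 0.633, and bins with 1 or 2 genes had more, 1.26 and 1.22. Bins with 3 or more genes had 1.75 and 1.99. In squares of 480 kb the boundaries in deserts were shallower. Their median strength was 0.555 in WT, against 0.795 to 0.922 in the other classes, and 0.557 in the Firre KO-labelled matrix, against 1.23 to 1.46. Of the 380 WT boundaries, 119 (31.3%, 26.9% to 36.1%) had one within 1 bin in the other matrix. This share was 43.8% (39.3% to 48.5%) in shorter intergenic bins, 50.9% (48.2% to 53.5%) in bins with 1 or 2 genes and 54.7% (46.7% to 62.4%) in bins with 3 or more, and none of these intervals overlapped that of deserts. Squares of 960 kb gave another order in WT. The median strength in WT was then 0.597 in deserts and 0.462 to 0.516 in the other classes, while in the Firre KO-labelled matrix deserts stayed lowest, with 0.637 against 1.02 to 1.29. The share of WT boundaries found in the other matrix was 26.4% (20.8% to 32.9%) in deserts, 22.8% in shorter intergenic bins, 27.9% in bins with 1 or 2 genes and 28.9% in bins with 3 or more, with overlapping intervals. Fewer read pairs stand behind each desert bin, and the part of depth in this share was not tested. A match within 1 bin also arises by position alone, more often where boundaries are denser, and this was not subtracted.

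The strongest WT boundaries among these 119 had matching boundaries of high strength in the Firre KO-labelled matrix. They lay in Tmprss15-Ncam2 on chromosome 16 (bin 81160001 to 81200000, strength 2.68 in WT and 2.85 in the Firre KO-labelled matrix), Kcnj3-Nr4a2 on chromosome 2 (55840001 to 55880000, 2.63 and 4.22) and Igfbp3-Tns3 on chromosome 11 (8240001 to 8280000, 2.55 and 2.10). Slitrk1-Slitrk6 on chromosome 14 (110120001 to 110160000, 2.30 and 2.33) and Jag1-Btbd3 on chromosome 2 (137760001 to 137800000, 2.13 and 2.46) followed. The Tmprss15-Ncam2 boundary lay in the bin at the desert edge (0 Mb) and the Igfbp3-Tns3 boundary 0.04 Mb from the edge. The others lay 0.28 to 0.8 Mb from it. Ncam2 and the Slitrk genes encode adhesion proteins of neurons, Kcnj3 a potassium channel, Nr4a2 a nuclear receptor of dopamine neurons and Jag1 a ligand of Notch receptors. None of these 5 bins held a match to the CTCF motif core. Of the 119 bins, 8 did (6.72%), against 3.17% of all desert bins. Over all desert boundaries in squares of 480 kb the share of bins with a match was near this background. It was 3.42% of the 380 in WT and 3.23% of the 341 in the Firre KO-labelled matrix. In squares of 240 kb it was higher, at 5.50% of 582 and 4.91% of 530. It was 3.98% and 4.05% in squares of 960 kb, 4.30% and 5.23% with the plain mean and 6.17% and 5.14% from uncorrected read pairs. Desert bins without a boundary had 3.02% to 3.17% in these settings. Of the 4 strongest of the 8 shared boundaries with a match, the sequences of 3 are printed above. Hs3st1-Rab28 had strengths of 1.88 and 2.72, Kcnt2-Cdc73 1.54 and 2.50 and Slc4a3-Epha4 1.23 and 2.34. In the same order they lay 0.56, 0.08 and 0 Mb from the desert edge. Near the edge, within 0.2 Mb, lay 43 of the 119, while 28.1% of desert bins lay there. Of the 220 deserts with at least 20 kept bins, 19 had no boundary in WT, 37 had none in the Firre KO-labelled matrix and 14 had none in either.

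Deserts of one chromosome contacted each other more than expected over 2 Mb and more. Over 2 Mb apart, pairs of deserts had 1.24 times the expected contacts in WT (1.23 to 1.24, 248674 read pairs) and 1.19 times in the Firre KO-labelled matrix (1.18 to 1.20, 115436 read pairs). Desert bins met bins with 3 or more genes at 0.645 and 0.704 times expected, and shorter intergenic bins at 1.07 and 1.05. Bins with 3 or more genes met each other at 1.26 and 1.27. Summed over these distances, contact was thus high within each kind and low across kinds in both matrices. At 2 to 5 Mb bins with 3 or more genes met each other below expectation, at 0.960 (0.937 to 0.983) and 0.849 (0.821 to 0.878). Against other bins of like GC content the level between deserts was 1.08 times in WT and 1.03 times in the Firre KO-labelled matrix, so other bins of like GC content had most of this excess too. By chromosome it lay above 1 on all 19 autosomes in WT (1.06 to 1.51) and on 16 in the Firre KO-labelled matrix (0.891 to 1.64). From uncorrected read pairs the values were 0.604 and 0.590.

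**Figure D4:**
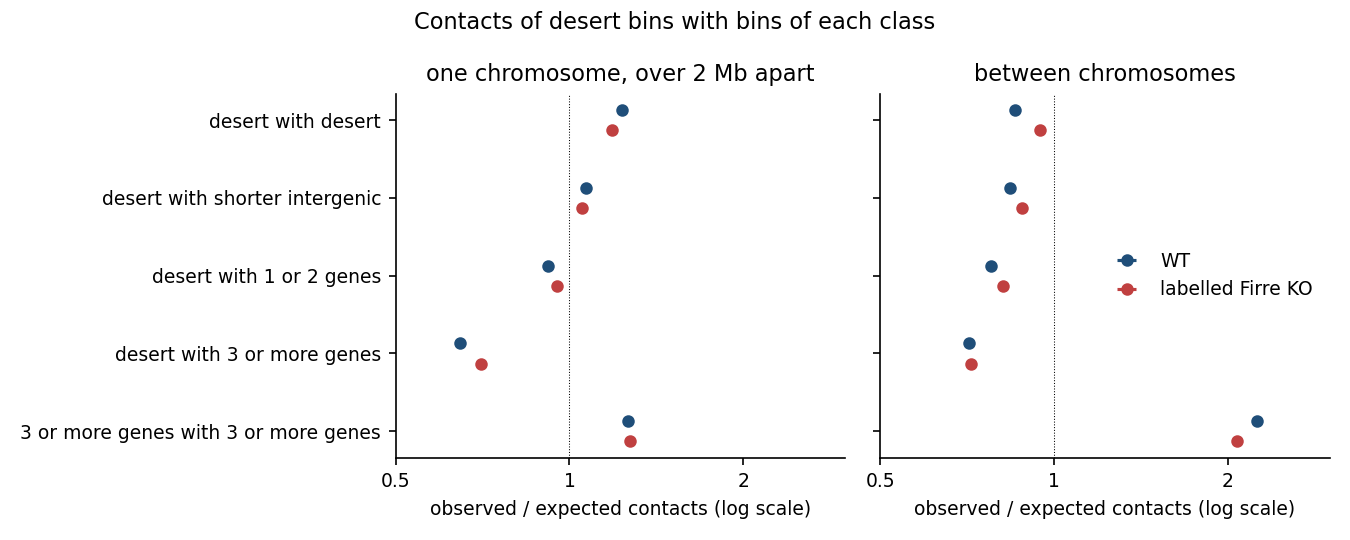
Observed over expected contacts (horizontal axis, log scale) of desert bins with each class of bins, and of bins with 3 or more genes with each other, over 2 Mb apart on one chromosome (left) and between chromosomes (right). The 95% counting intervals are narrower than the points; deserts with deserts lie at 1.24 in WT and 1.19 in the Firre KO-labelled matrix on the left, and at 0.854 and 0.946 on the right.

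Which matrix was the higher differed with the distance between deserts. At 2 to 5 Mb the level was 1.19 in WT (1.17 to 1.21) and 1.47 in the Firre KO-labelled matrix (1.44 to 1.5). At 5 to 10 Mb the levels were 1.25 and 1.24, with overlapping intervals. Beyond, WT was the higher, with 1.23 against 1.17 at 10 to 20 Mb, 1.27 against 1.14 at 20 to 50 Mb and 1.17 against 1.07 over 50 Mb. The contacts of deserts with bins of 3 or more genes fell with distance in WT, from 0.703 to 0.568, and stayed between 0.688 and 0.716 in the Firre KO-labelled matrix. The order of the matrices in the sum turned for deserts of at least 2 Mb, with 1.28 in WT and 1.38 in the Firre KO-labelled matrix, and for deserts bounded by genes of any type, with 1.21 and 1.28. No single direction between the matrices therefore holds for contacts between deserts.

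**Figure D5:**
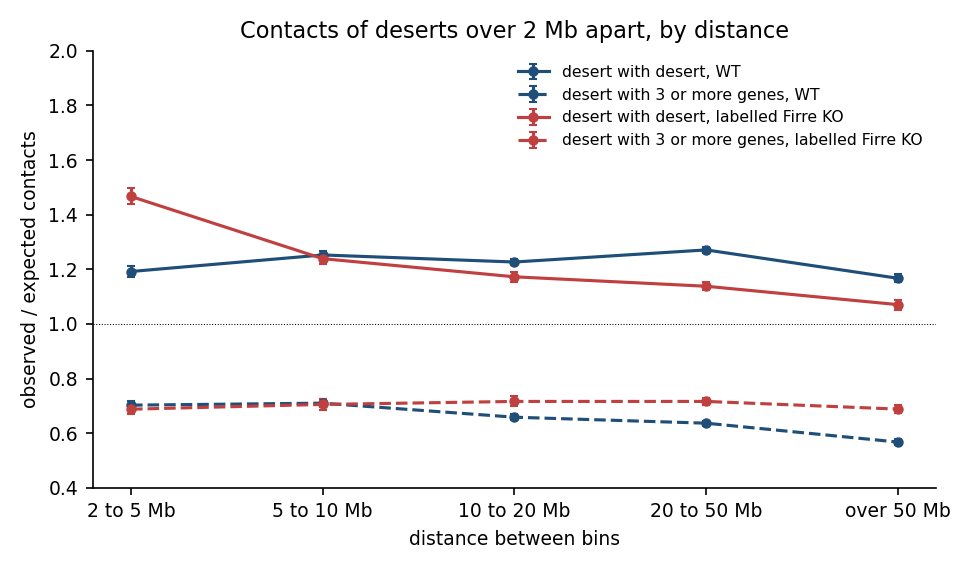
Observed over expected contacts (vertical axis) of deserts with other deserts (solid) and with bins of 3 or more genes (dashed) by distance, with 95% counting intervals. The lines for deserts cross near 5 to 10 Mb: the Firre KO-labelled matrix is at 1.47 and WT at 1.19 at 2 to 5 Mb, and at 1.07 and 1.17 over 50 Mb.

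Single pairs of deserts varied widely. Of 1464 pairs, 1340 had at least 400 bin pairs. Their median was 1.18 in WT, with 80% of pairs between 0.737 and 1.62, and 1.03 in the Firre KO-labelled matrix, with the same range from 0.562 to 1.66. At least 1.5 times the expected contacts were found in 239 pairs (17.8%) in WT and in 207 (15.4%) in the Firre KO-labelled matrix. The background, pairs of windows without desert bins, was 6.24% in WT and 9.59% in the Firre KO-labelled matrix. A median of 132 and 53 read pairs stood behind a pair of deserts and of 206 and 95 behind a pair of windows, so counting error is larger for deserts, and its part in these shares was not tested. Levels were weakly related between the matrices, with Pearson's r of 0.282 for deserts and 0.518 for windows.

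Among the 710 pairs of deserts with at least 50 read pairs in each matrix, the pair of highest WT level joined Odz2-Mat2b to Kif2b-Car10 on chromosome 11 across 50.9 Mb, with 2.49 times the expected contacts in WT (2.20 to 2.83, 296 read pairs) and 1.23 times in the Firre KO-labelled matrix (0.954 to 1.58, 76 read pairs). Cetn3-Mef2c with Htr1a-Dph3b-ps on chromosome 13, across 22.6 Mb, had 2.41 (2.03 to 2.86) and 1.70 (1.26 to 2.30). Kif2b-Car10 with Kcnj2-Gm11678 on chromosome 11, across 17.98 Mb, had 2.32 (2.07 to 2.59) and 1.04 (0.810 to 1.34). These pairs were chosen for high WT levels, so that a lower level in the other matrix is partly fixed by the choice. Reg3g-Gm17621 with Cntn3-Chl1 on chromosome 6 had 2.21 and 2.003, and Gm11161-Gm597 with C230029F24Rik-Tmeff2 on chromosome 1 had 2.17 and 1.61. Mef2c encodes a transcription factor of heart and brain, Htr1a a serotonin receptor, and Cntn3 and Chl1 adhesion proteins of neurons.

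The compartment profile was taken at 200 kb as the eigenvector of the contact correlation that followed GC content best, turned so that high values go with high GC. Deserts are poor in GC, so its sign in deserts is not independent of their sequence. It was negative in 95.4% of desert bins in WT and 85.7% in the Firre KO-labelled matrix. In shorter intergenic bins it was negative in 63.8% and 57.9%, and in bins with 3 or more genes in 13.9% and 25.2%. Of the 220 deserts, 170 were negative throughout in WT and 141 in the Firre KO-labelled matrix, while 7 and 15 were positive throughout. The profile was less sharp in the Firre KO-labelled matrix. Its correlation with GC content ran from 0.388 to 0.648 over the autosomes there and from 0.656 to 0.825 in WT, and it was the first eigenvector on 14 and on 19 autosomes.

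Between chromosomes, desert bins had fewer contacts than other bins. In WT, a median of 12.5% of the corrected contacts of a desert bin fell on other autosomes, against 14.7% in shorter intergenic bins, 16.4% in bins with 1 or 2 genes and 19.8% in bins with 3 or more. In the Firre KO-labelled matrix the medians were 30.2%, 34.1%, 36.5% and 42.4%, so all classes were higher in the same order. Relative to other bins the mean share in deserts was 0.789 in WT and 0.841 in the Firre KO-labelled matrix. Against other bins of like GC content it was 0.925 and 0.913. By autosome, the median share was lower in desert bins than in other bins on all 19 in both matrices. The lowest WT share was 9.04%, in Zeb2-Acvr2a.

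Relative to the median of all autosomal bins, the log2 ratio of the matrices was higher by 0.09 in desert bins and lower (-0.08) in bins with 3 or more genes. Past 1.5-fold above that median lay 259 desert bins (2.7%), against a background of 1.69% of all bins, and past 1.5-fold below it 76 (0.792%), against 0.749%. The share on the lower side was close to the background. Desert bins have fewer read pairs, so counting error is larger for them, and its part in both shares was not tested.

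Deserts of different chromosomes met less often than the average pair of bins, at 0.854 times expected in WT (0.848 to 0.861) and 0.946 times in the Firre KO-labelled matrix (0.941 to 0.951). For deserts of at least 2 Mb the latter value was on the other side of 1, at 1.02 (1.005 to 1.03), with 0.829 in WT, and uncorrected read pairs gave 0.393 and 0.444. In the matrices as corrected, they met each other more often than they met genes. Desert bins contacted shorter intergenic bins at 0.838 and 0.880 times expected, in WT close to the level between deserts. They contacted bins with 1 or 2 genes at 0.776 and 0.816 times expected and bins with 3 or more genes at 0.711 and 0.718 times. Bins with 3 or more genes met each other at 2.24 and 2.07. Set against the general level of each class between chromosomes, the preference of deserts for deserts was 1.32 in WT and 1.30 in the Firre KO-labelled matrix, and their preference for bins with 3 or more genes 0.742 and 0.728. These relative values differed little between the matrices, while the level between deserts was higher in the Firre KO-labelled matrix on all 19 autosomes.

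Across the 220 deserts, the level with deserts of other chromosomes in the Firre KO-labelled matrix went against GC content (Pearson's r -0.491) and against its own read pairs per bin (-0.580). In WT it did so with neither (-0.03 and -0.07). The extremes in the Firre KO-labelled matrix were Gm20516-Pgk2 on chromosome 17, at 1.29 with 1.01 in WT, and Zfp608-Gramd3, at 0.510 with 0.799 in WT. Both were named after their values were seen. Zfp608-Gramd3 was also among the 3 deserts with the highest ratio of contacts within it.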

How the data were processed

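Hi-C contact matrices of WT and Firre KO male mESCs were used, 1 per group. According to the methods and the labels, the authors mapped the reads of the 2 pooled libraries of a group to mm9 and filtered, binned and corrected them using HiC-Pro 2.7.8. As deposited, the values are a corrected contact signal per pair of 40 kb bins. Each is a whole number of read pairs times 1 weight per bin. Both were recovered by fitting, with 100% of values within 0.05 of a whole number. 

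Genes came from the GENCODE annotation of mm9, whose chromosome lengths equal those of the bin table. Repeat content was not analysed here. The members, gene lists and comparisons were chosen with earlier results of these data known. The deserts named are the 10 longest and, of those with at least 20 kept bins, the 3 of highest and of lowest ratio of the matrices. The 5 pairs of highest WT level with at least 50 read pairs in each matrix and the 5 strongest shared boundaries were also named. Exceptions are marked. No sequence of chromosome 18 is printed, and 1 boundary with a motif is not reported here.

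Expected contacts were the mean over bins kept in both matrices at the same distance, smoothed over 5% of the distance beyond 2 Mb, or the mean of a pair of chromosomes. Levels are ratios of sums. Intervals are Poisson with weights held fixed, and Wilson intervals for shares. Insulation was an own implementation with the study's settings (square 480 kb, delta span 320 kb, smoothing 160 kb, interquartile mean). The other bins of like GC content were weighted in strata of 0.5%. Scripts in Python 3.11.15 (numpy 2.4.6, scipy 1.17.1) were tested on simulated data. Alternatives covered the length and bounding genes of deserts, the correction, the expected value, distances, square and GC content, and, chosen after seeing the data, bins of at least 500 read pairs and a filter of single pairs of deserts on bin pairs alone.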

Additional observations from a re-analysis of the deposited data

How the results depend on the processing

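Of 76 alternatives over both matrices, 12 left a value inside its counting interval, 7 turned its side of no difference and 57 moved it outside that interval or concerned the insulation score, which has none. Values are given for WT, then for the Firre KO-labelled matrix, and the causes were not tested unless stated. Uncorrected read pairs, of which desert bins have fewer, turned the contacts within deserts (0.507, 0.572), the excess of the insulation score (-1.07, -0.83) and the contacts between deserts over 2 Mb apart (0.604, 0.590). They gave decay exponents of -0.915 and -0.706, contacts between chromosomes of 0.393 and 0.444 and a relative share between chromosomes of 0.922 and 0.942. Deserts of at least 2 Mb gave 1.05 and 1.11 within deserts, an insulation excess of 0.25 and 0.36, 1.28 and 1.38 over 2 Mb apart and shares of 0.768 and 0.827. They turned the contacts between chromosomes in the Firre KO-labelled matrix to 1.02 (WT 0.829), where the exponent was -0.665 and the density 1.06 per Mb. Deserts bounded by genes of any type gave 1.01 and 1.05 within, exponents of -0.870 and -0.642, an insulation excess of 0.27 and 0.42, 1.21 and 1.28 over 2 Mb apart, 0.872 and 0.981 between chromosomes and shares of 0.794 and 0.849. Bins with at least 500 read pairs, chosen after seeing the data, gave 1.07 and 1.15 within, 1.23 and 1.15 over 2 Mb apart, 0.832 and 0.915 between chromosomes and shares of 0.777 and 0.835. Against bins of like GC content the levels were 1.08 and 1.03 over 2 Mb apart and the shares 0.925 and 0.913. An expected value over all autosomes gave 1.05 within deserts in WT, 1 mean over all chromosome pairs gave 0.844 and 0.938, a gap over 5 Mb gave 1.14 in the Firre KO-labelled matrix, and distances of 200 kb to 2 Mb gave exponents of -1.13 and -0.729. Squares of 240 kb gave an insulation excess of 0.0565 and 0.0753 and densities of 1.52 and 1.39 per Mb, squares of 960 kb gave 0.48 and 0.91 and densities of 0.526 and 0.452, and the plain mean gave 0.15 and 0.26. The decay exponent stayed shallower in the Firre KO-labelled matrix than in WT under every alternative run.

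No paired analysis was possible because the 2 libraries of each group were pooled in 1 matrix, and for the same reason no library was left out. Depth limits single pairs of deserts, with a median of 53 read pairs in the Firre KO-labelled matrix, and desert contacts at 3 Mb, with 151 and 234.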
